A study of Mus musculus with 30 samples.

Results

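A set of 10 genes that mark the primitive endoderm lineage was followed in female mouse embryonic stem cells (mESCs): the transcription factor genes Gata4, Gata6, Sox17, Sox7 and Foxa2, the adaptor gene Dab2, the receptor gene Pdgfra, and the basement membrane genes Lama1, Col4a1 and Col4a2. They were chosen by name and taken from the table through their Ensembl identifiers in GENCODE M21. All 10 were found among the 55421 genes of the table, and all 10 passed the filter of at least 10 counts in at least 2 libraries. Primitive endoderm is the layer that separates from the epiblast in the late blastocyst and gives rise to the visceral and parietal endoderm of the yolk sacs. GATA6 and GATA4 drive this fate, FGF signalling through the MAPK pathway favours it, and NANOG opposes it. Its cells lay down a basement membrane of laminin and type IV collagen. In mESC cultures, single cells can turn to this fate, so the level of these genes is read as a sign of spontaneous differentiation. Several of them are also active in other cells, Pdgfra, Dab2, Col4a1 and Col4a2 in fibroblasts and Sox17 and Foxa2 in definitive endoderm.

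Positions are given on GRCm38 (mm10). Gata4 (ENSMUSG00000021944, minus strand, chromosome 14 from 63198922 to 63271692) and Sox7 (ENSMUSG00000063060, plus strand, chromosome 14 from 63943673 to 63950732) are neighbours on the same chromosome. Gata6 (ENSMUSG00000005836) lies on chromosome 18 from 11052064 to 11085635, Sox17 (ENSMUSG00000025902) on chromosome 1 from 4490931 to 4497354, Foxa2 (ENSMUSG00000037025) on chromosome 2 from 148042877 to 148046969 and Dab2 (ENSMUSG00000022150) on chromosome 15 from 6299788 to 6440712. Pdgfra (ENSMUSG00000029231) lies on chromosome 5 from 75152292 to 75198215 and Lama1 (ENSMUSG00000032796) on chromosome 17 from 67697259 to 67822647. Col4a1 (ENSMUSG00000031502, minus strand, chromosome 8 from 11198423 to 11312826) and Col4a2 (ENSMUSG00000031503, plus strand, chromosome 8 from 11312805 to 11449287) stand head to head, and their gene models overlap by 22 bases. None of the 10 lies on the X chromosome, so no member is inside any of the deletions.

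The 30 bulk RNA-seq libraries came from F1 hybrid mESCs of 129/Sv and Cast/Ei parents. They covered XX wild type, XX Rnf12+/-, the XO lines XCastO129 and X129OCast (2 libraries each) and 13 lines with a heterozygous deletion of a segment of the X chromosome. According to the paper, all deletion lines were made in cells with the heterozygous Rnf12 deletion, so XX Rnf12+/- served as their reference. For A, B, AB and C-G there was 1 clone each, and the 9 lines C, D, E, F, H, I, I-TEL, J and K as 2 clones each, 22 libraries in all. Lines J and I-TEL were made from a different Rnf12+/- founder than the other deletion lines, and that founder was not analysed here. After the Rnf12 deletion, the deletion lines went through a further round of transfection, drug selection and cloning. The mESCs were grown on irradiated fibroblast feeders that were removed by pre-plating before RNA was taken. Libraries fell into 3 series by the prefix of their names: XX and deletion E (6 libraries), the other 12 deletion lines (20 libraries), and the XO lines (4 libraries, read as single reads). Series and condition cannot be told apart for the XO lines, and among the deletion lines only E shared its series with the reference.

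Total counts were 20375194 to 21181405 in the first series, 8816184 to 10680026 in the second and 14998265 to 16494893 in the third. The labels of the XX and XO libraries held. Rlim, the gene of Rnf12, was at 193 to 211 TPM in wild type, 77.6 to 79.7 TPM in XX Rnf12+/- and 3.53 TPM in X129OCast. The 129 share of X-linked allelic counts was 4.48% to 4.56% in XCastO129 and 99.7% in X129OCast. In the 22 deletion libraries, Rlim ran from 50.4 to 144 TPM, so its level did not check the Rnf12 genotype of each of them. The reason for this range was not tested. Levels are counts per exon length, scaled to the same total in each library (TPM). Summed over 16 fibroblast genes (Acta2, Fbln2, Col1a1, Col1a2, Col3a1, Lum, Dcn and others, all 16 detected in all 30 libraries), the level ran from 133.4 TPM (deletion I clone 2) to 1117 TPM. The genes of this list did not all move together. The median of Acta2 was 338 TPM in the first and 47.5 TPM in the second series, and that of Fbln2 143 and 34.7 TPM. The medians of Col3a1, Col6a3, Postn, Lum, Dcn and Tgfbi were lower in the first series than in the second. Replicate 1 of XX wild type (830.9 TPM), replicate 1 of XX Rnf12+/- (1117 TPM) and both deletion E clones (743.9 and 1109 TPM) stood apart from replicate 2 of XX wild type (200.0 TPM) and replicate 2 of XX Rnf12+/- (204.6 TPM). The 12 deletion lines of the second series held 133.4 to 488.6 TPM and the XO lines 201 to 444 TPM. In bulk RNA, fewer cells of a type and less RNA per cell cannot be told apart.

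The shared start region of the collagen genes is shown because their levels moved together, and a start of Dab2 beside it as a window that holds GATA words. The windows run from 250 bases before to 50 bases after the RefSeq start (GRCm38.p6), 5′ to 3′ on the strand of the gene. RefSeq promoter windows were found for 5 of the 10 genes, and only these 3 are printed. Capitals mark the GC box word GGGCGG or its reverse complement in the collagen genes, and the GATA words AGATAA and TGATAA or their reverse complements in Dab2.
Col4a1, chr8:11312777-11313076, minus strand: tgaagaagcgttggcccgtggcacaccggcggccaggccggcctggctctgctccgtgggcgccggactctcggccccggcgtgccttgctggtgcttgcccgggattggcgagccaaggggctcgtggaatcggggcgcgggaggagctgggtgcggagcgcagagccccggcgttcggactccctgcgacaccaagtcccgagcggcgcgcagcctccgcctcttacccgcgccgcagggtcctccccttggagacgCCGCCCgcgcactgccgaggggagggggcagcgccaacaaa
Col4a2, chr8:11312555-11312854, plus strand: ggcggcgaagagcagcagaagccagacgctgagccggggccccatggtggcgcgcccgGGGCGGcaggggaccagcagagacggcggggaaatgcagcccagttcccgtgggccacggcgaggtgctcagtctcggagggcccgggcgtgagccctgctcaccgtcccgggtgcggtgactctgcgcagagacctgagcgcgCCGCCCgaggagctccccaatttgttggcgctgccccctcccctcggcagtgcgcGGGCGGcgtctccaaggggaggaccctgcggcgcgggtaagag
Dab2, chr15:6299539-6299838, plus strand: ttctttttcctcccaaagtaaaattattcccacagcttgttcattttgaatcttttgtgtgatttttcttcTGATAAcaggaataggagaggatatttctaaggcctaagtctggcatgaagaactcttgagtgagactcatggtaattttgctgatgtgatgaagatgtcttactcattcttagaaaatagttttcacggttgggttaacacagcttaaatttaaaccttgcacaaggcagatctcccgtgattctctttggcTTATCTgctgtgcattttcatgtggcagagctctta

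The Col4a1 window (74% GC, 1 GC box) and the Col4a2 window (73.7% GC, 3 GC boxes) share 78 bases, read from opposite strands. The Dab2 window shown has 37.7% GC and holds 2 GATA words, whereas a second Dab2 window in the same table, further downstream, has 59.3% GC and holds none. Over all 32851 promoter windows of the same length, the median GC content was 52.7%, 35.7% held the GC box word and 18.6% held a GATA word on either strand. These are matches of letters, not measured sites.

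The transcription factor genes were low in all libraries, and the basement membrane genes were well expressed in all of them. Over the 30 libraries, the median level was 1.93 TPM for Gata4, 0.808 TPM for Gata6, 0.613 TPM for Sox17, 2.73 TPM for Sox7 and 1.16 TPM for Foxa2. Pdgfra (2.28 TPM) lay among them, Dab2 (7.53 TPM) was higher, and Lama1 (47.4 TPM), Col4a1 (35.9 TPM) and Col4a2 (24.3 TPM) were highest. In the 4 XX libraries, the mean level of Sox17 exceeded that of 38.2% of 21976 protein-coding genes and the mean of Col4a1 that of 83.6%. More than 1 TPM was reached by Gata4 in 28 libraries, by Sox7 in 29, by Foxa2 in 17, by Gata6 in 12 and by Sox17 in 4. The label of the gene set was checked against further endoderm genes, which were mixed. Ttr, a secreted product of visceral endoderm, had no count in any of the 30 libraries, Afp had none in 23, Fxyd3 none in 22 and Apoa1 none in 2. All others had counts in all 30 libraries. Among them, Apoe was at 521 to 2980 TPM, Amn at 2.26 to 11.1 TPM, Lrp2 at 0.948 to 21.1 TPM and Hnf4a at 0.0863 to 3.31 TPM. Sparc, made in parietal endoderm and in fibroblasts, was at 97.1 to 317 TPM. The pluripotency genes summed to 4525 to 7428 TPM, against 84.4 TPM (X129OCast replicate 1) to 199.5 TPM (XX Rnf12+/- replicate 1) for the 10 genes together and 4.72 TPM (deletion D clone 1) to 17.2 TPM (deletion I clone 1) for the 5 transcription factor genes. At these depths the factor genes rest on few reads, with 14 to 103 counts per library for Gata4, 3 to 65 for Gata6, 2 to 27 for Sox17 and 1 to 66 for Foxa2.

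**Figure D1:**
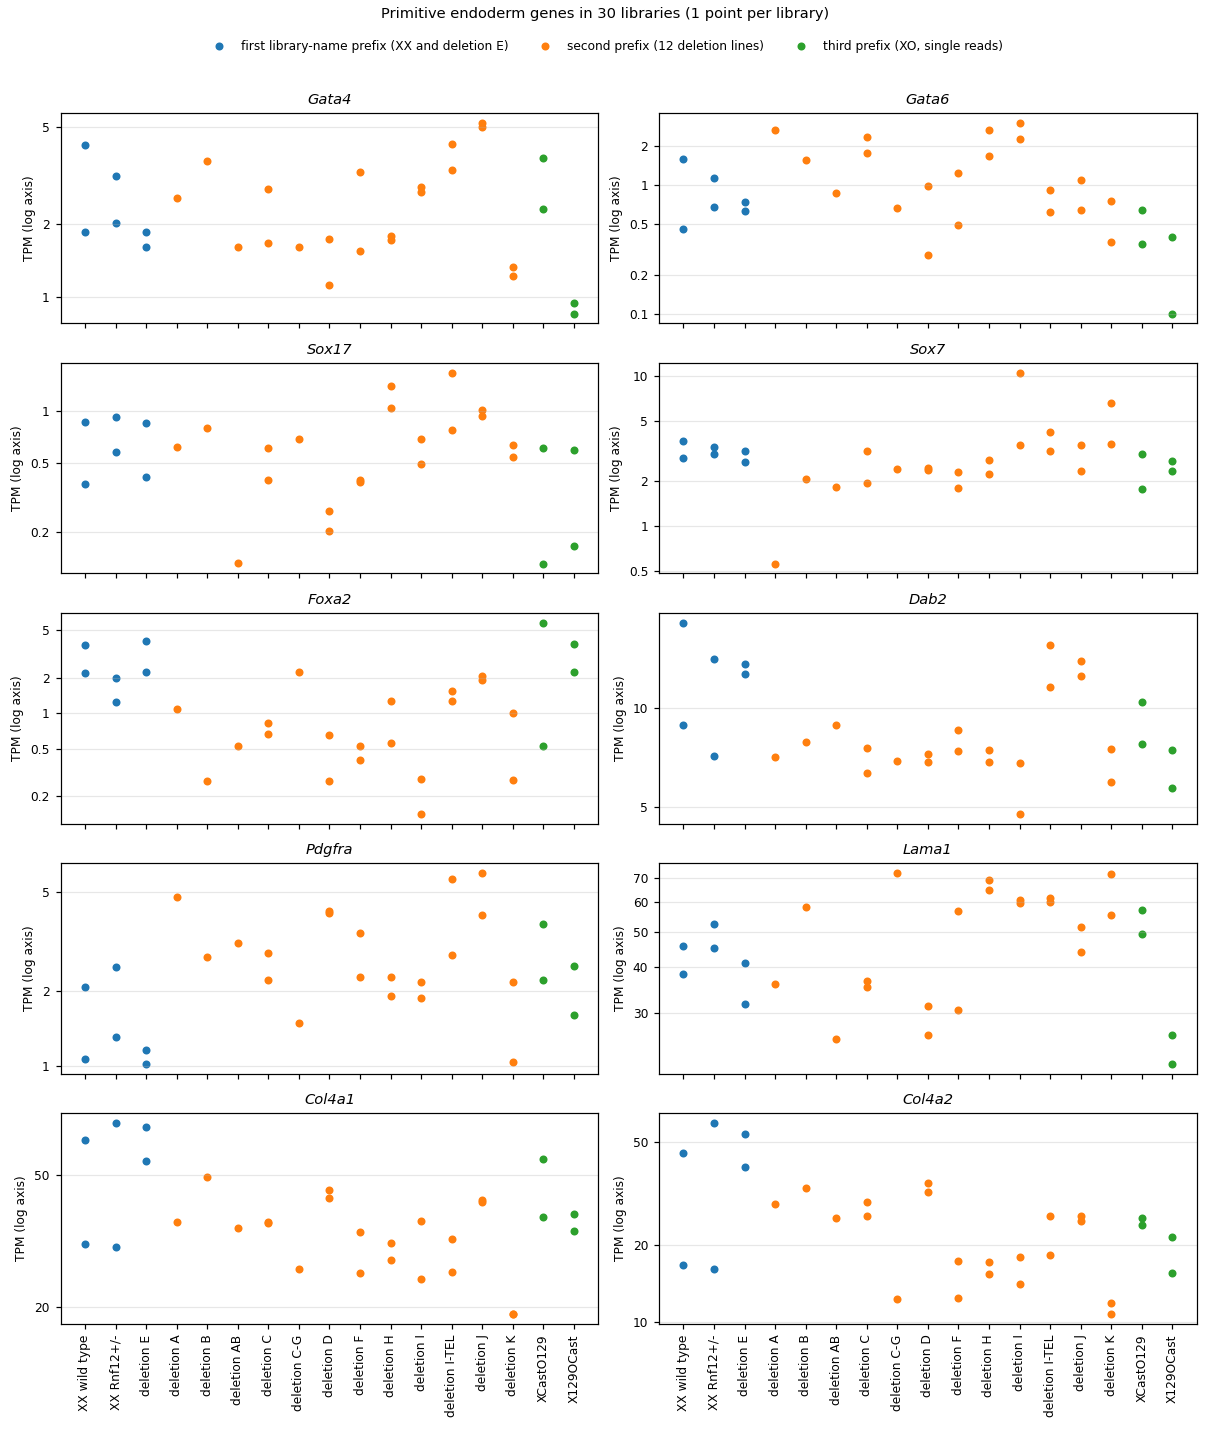
Level of each gene in TPM (log axis) by condition, with 1 point per library and colours for the 3 library series. Gata4 was highest in both deletion J clones (4.98 and 5.19 TPM) and lowest in both X129OCast libraries (0.857 and 0.951 TPM), and the replicates of XX wild type and XX Rnf12+/- lie far apart for Col4a1, Col4a2 and Dab2.

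Gata4, a zinc finger factor that is needed for endoderm formation, was at 1.85 and 4.22 TPM in XX wild type, 2.01 and 3.13 TPM in XX Rnf12+/-, 3.73 and 2.29 TPM in XCastO129 and 0.857 and 0.951 TPM in X129OCast. Both X129OCast libraries lay below all other 28 libraries. In the 20 deletion libraries of the second series it ran from 1.13 TPM (D clone 1) over a median of 2.17 TPM to 5.19 TPM (J clone 2), with J (4.98 and 5.19 TPM) highest and I-TEL (3.33 and 4.23 TPM) next to it. Ordered by condition mean, Gata4 ran from 5.09 ± 0.146 TPM in J to 0.904 ± 0.0668 TPM in X129OCast (SD, n = 2 each), and of 9 neighbouring pairs of conditions with 2 libraries each only 2 did not overlap.

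Gata6, the factor that acts earliest in this fate, was at 0.453 and 1.60 TPM in XX wild type, 0.678 and 1.13 TPM in XX Rnf12+/-, 0.351 and 0.640 TPM in XCastO129 and 0.393 and 0.101 TPM in X129OCast. Among the deletion lines it was highest in I (3.04 and 2.27 TPM), A (2.66 TPM), H (1.69 and 2.69 TPM) and C (2.36 and 1.76 TPM), and lowest in D clone 1 (0.289 TPM) and K clone 1 (0.366 TPM). These highest lines were not those with the highest Gata4: in J, Gata6 was at 0.641 and 1.09 TPM. In its order of condition means, no neighbouring conditions with 2 libraries each were separated beyond their replicates.

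Sox17 and Sox7, related SRY-box factors of endoderm and endothelium, differed in pattern. Sox17 ran from 0.131 TPM in XCastO129 replicate 1 and 0.132 TPM in the AB clone to 1.67 TPM in I-TEL clone 1, and was above 1 TPM only in both H clones (1.05 and 1.41 TPM), I-TEL clone 1 and J clone 1 (1.02 TPM). Sox7 was at 1.77 to 4.24 TPM in 27 libraries and stood out in 3 others, at 10.5 TPM in I clone 1, 6.59 TPM in K clone 1 and 0.559 TPM (5 counts) in the A clone. The second clones of I (3.46 TPM) and K (3.54 TPM) lay within the range of those 27 libraries.

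Foxa2, a forkhead factor shared by all endoderm types and the node, varied most between replicates by its median fold. It was at 2.21 and 3.78 TPM in XX wild type, 1.24 and 1.99 TPM in XX Rnf12+/-, 2.24 and 4.09 TPM in deletion E, 0.526 and 5.80 TPM in XCastO129 and 2.24 and 3.87 TPM in X129OCast. In the second series it ran from 0.142 TPM (I clone 2) to 2.23 TPM (C-G). The replicates of a condition differed by a median of 1.73-fold over the 13 conditions with 2 libraries, with the widest gap in XCastO129. For Gata6 this median was 1.70-fold, for Sox17 1.54-fold, for Sox7 1.30-fold and for Gata4 1.27-fold, against 1.17-fold for Lama1, the steadiest of the 10.

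Dab2, an endocytic adaptor of visceral endoderm that is switched on with the fate, was at 18.1 and 8.84 TPM in XX wild type, 14.0 and 7.15 TPM in XX Rnf12+/-, 12.7 and 13.6 TPM in deletion E, 7.75 and 10.4 TPM in XCastO129 and 5.71 and 7.44 TPM in X129OCast. In the second series, I-TEL (11.5 and 15.5 TPM) and J (13.8 and 12.5 TPM) lay above all 16 other libraries, which held 4.76 TPM (I clone 2) to 8.89 TPM (AB). Pdgfra, the PDGF receptor that marks early primitive endoderm and also fibroblasts, was at 1.06 and 2.09 TPM in XX wild type, 1.30 and 2.50 TPM in XX Rnf12+/- and 1.16 and 1.02 TPM in deletion E. It was highest in J (6.00 and 4.07 TPM), I-TEL clone 2 (5.65 TPM), A (4.78 TPM) and D (4.13 and 4.23 TPM). In the XX libraries, Pdgfra was lower in the replicates with the higher summed fibroblast level, whereas Dab2 was higher in them.

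Lama1 encodes the alpha chain of laminin-111, the first laminin of the embryo. It was at 38.3 and 45.7 TPM in XX wild type, 45.0 and 52.5 TPM in XX Rnf12+/-, 57.1 and 49.2 TPM in XCastO129 and 21.8 and 26.2 TPM in X129OCast. The deletion lines spread around these values, with C-G (72.1 TPM), H (64.9 and 68.8 TPM) and K (71.8 and 55.6 TPM) at the upper end and AB (25.5 TPM) and D (26.1 and 31.4 TPM) at the lower end. Its partner chains Lamb1 (65.0 to 121 TPM) and Lamc1 (129 to 308 TPM) and the linker Nid1 (58.6 to 137 TPM) were higher per length than Lama1 at their medians.

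Col4a1 and Col4a2 encode the chains of the common type IV collagen trimer. Col4a1 was at 63.7 and 31.0 TPM in XX wild type and 71.8 and 30.4 TPM in XX Rnf12+/-, and Col4a2 at 45.4 and 16.7 TPM and at 59.5 and 16.1 TPM in the same libraries. The replicates of XX Rnf12+/- thus differed by 3.70-fold in Col4a2, the largest gap of this gene between replicates of any condition. In deletion E they were at 54.9 and 69.7 TPM (Col4a1) and at 40.0 and 54.1 TPM (Col4a2). The 4 libraries with most Col4a2 were replicate 1 of each XX condition and the deletion E clones. They were also the 4 with the highest summed fibroblast level, and for Col4a1 only XCastO129 replicate 1 (55.9 TPM) came between them. Both were lowest in K, at 19.0 TPM in each clone for Col4a1 and 10.7 and 11.9 TPM for Col4a2. The ratio of Col4a1 to Col4a2 stayed between 1.21 and 2.21 in all 30 libraries.

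Among the 20 libraries of the second series, 4 of the 10 genes varied along with the fibroblast genes. The Pearson correlation of log2(TPM + 1) with the summed fibroblast level was 0.88 for Pdgfra, 0.84 for Col4a2, 0.67 for Col4a1 and 0.59 for Dab2, with Spearman values of 0.91, 0.80, 0.62 and 0.53. It was -0.55 (Spearman -0.61) for Lama1 and between -0.24 and 0.37 for the 5 transcription factor genes. Without the 2 libraries farthest from the median fibroblast level, the values were 0.86 for Pdgfra, 0.89 for Col4a2, 0.74 for Col4a1, 0.44 for Dab2 and -0.56 for Lama1. The 2 clones of a line share that line, so these values describe the 20 libraries and carry no test. The part of fibroblast RNA in the levels of Pdgfra, Col4a1, Col4a2 and Dab2 was not tested.

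The allelic counts separated the 10 genes as well. Over all 30 libraries, the 129 share was 91.9% for Pdgfra (490 of 533 allelic counts, exact 95% interval 89.3% to 94.1%), 85.2% for Sox7 (80.6% to 89.1%) and 78.6% for Col4a2 (77.3% to 79.9%), against 51.5% for all expressed autosomal genes and 83.9% for the 16 fibroblast genes. Lama1 (34.3%, 33.5% to 35.2%) and Dab2 (34.0%, 31.3% to 36.8%) lay on the Cast side, and Col4a1 was at 47.3%. Gata4 at 56.3% (49.8% to 62.6%) and Gata6 at 59.8% (48.7% to 70.1%) had intervals that reach 50%. The pooled shares differed by series: in the second, Gata4 was at 64.1% (55.3% to 72.3%) and Gata6 at 71.1% (55.7% to 83.6%). That series holds I clone 1 and F clone 2, where the genes within 20 Mb of Gata4 had 129 shares of 65.4% and 43.5%. Gata4 and Gata6 were at 44.3% and 50% in the first series and at 50.9% and 37.5% in the third. Sox17 had 20 and 9 and Foxa2 6 and 14 allelic counts from 129 and Cast in all libraries together, too few to place. These exact (Clopper-Pearson) intervals cover counting error only, not the spread between libraries.

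The share of Col4a2 was not constant. Among the libraries with at least 20 allelic counts it ran from 43.9% in the C-G clone to 91.5% in E clone 2, and in XX Rnf12+/- it was 89.6% in replicate 1 (362 and 42 counts) and 72.1% in replicate 2 (75 and 29 counts). Over the 20 libraries of the second series, the share correlated with the fibroblast level for Col4a2 (Pearson 0.79, Spearman 0.87) and Col4a1 (0.74 and 0.72), which ran from 33.3% in K clone 2 to 58.9% in C clone 1. Lama1 kept a share of 28.5% to 40.4% in all 30 libraries and was the only one of the 3 basement membrane genes below 50% throughout. Pdgfra was at 90.5% to 100% in the 10 libraries with at least 20 allelic counts, and Dab2 at 12.3% to 50.7% in 22 libraries.

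**Figure D2:**
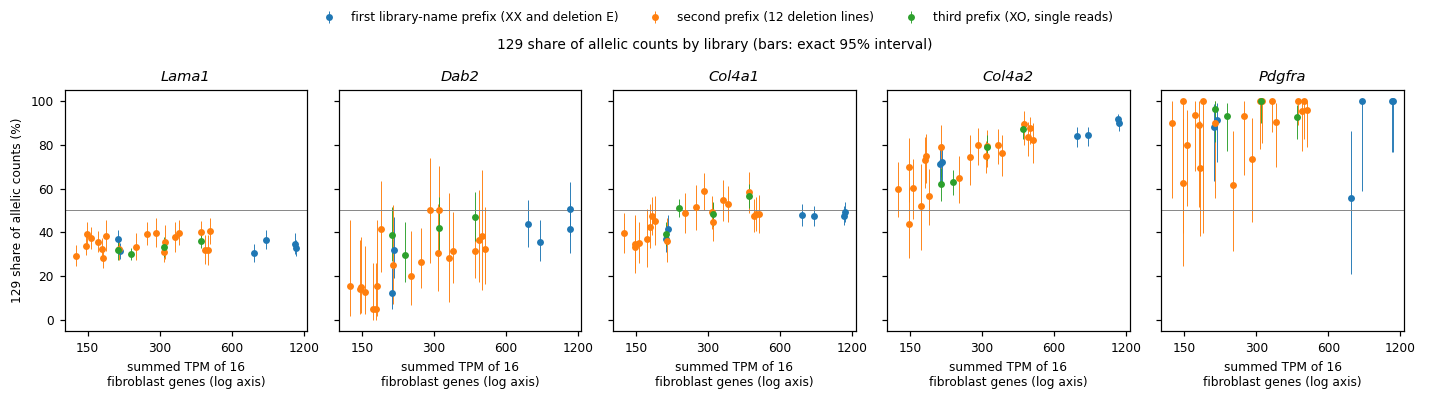
The 129 share of allelic counts of 5 genes in each library (percent, bars for the exact 95% interval) against the summed TPM of the 16 fibroblast genes (log axis). Lama1 stays at 28.5% to 40.4% in all libraries, whereas Col4a2 climbs from 43.9% to 91.5%. The highest Col4a2 shares are in the XX and deletion E libraries with the highest summed fibroblast level.

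Chromosome 8 was present at a raised dosage in 5 libraries, but not at the position of the collagen genes. Over the whole of chromosome 8, the median difference of log2(TPM + 1) from the 15 other libraries of the second series was 0.38 to 0.49 in F clone 2 and in both clones of I-TEL and of J. In the first 10 Mb downstream of the Col4a1 start (32 genes), the difference in these 5 libraries was -0.09 to 0.04, and in the 10 Mb before it (30 genes) -0.09 to 0.08. It exceeded 0.25 from 20 Mb onward in I-TEL clone 1 and both J clones, from 10 Mb in I-TEL clone 2, and from 50 Mb in F clone 2. Beyond these borders the 129 share was 57.6% to 70.4% in the I-TEL and J clones and 26.8% to 35.5% in F clone 2. In the I-TEL and J clones it was already 56.7% to 59.7% between 10 and 20 Mb, where the other 15 libraries held at most 53.5%, and from 0 to 10 Mb it was 49.8% to 51.6%, slightly above their maximum of 49.4%. Within 20 Mb of Col4a1 (109 genes) all 30 libraries were between -0.07 and 0.08, with a 129 share of 48.7% to 55.1%. The levels of the genes next to Col4a1 and Col4a2 thus showed no raised dosage in these libraries, and the collagen levels were not rescaled.

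**Figure D3:**
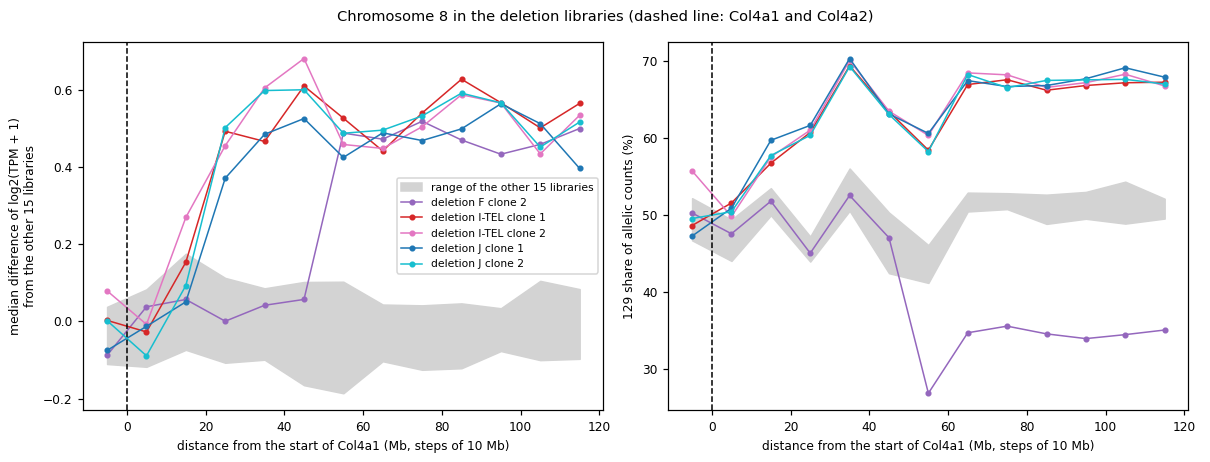
Median difference of log2(TPM + 1) from the other 15 libraries of the second series (left) and 129 share of allelic counts (right, percent) in steps of 10 Mb from the start of Col4a1, with the grey band for the range of the other 15 libraries. At the collagen genes (dashed line) the level differences of all 5 libraries are within 0.09 of 0 and the shares within a few points of the band, and the wide departures from the band begin 10 to 50 Mb further along the chromosome.

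Of the other genes, Gata4 and Sox7 lay in a region of raised dosage in I clone 1. Within 20 Mb of them (224 genes) the median was 0.40 higher on the log2 scale, with a 129 share of 65.4%, while the other 29 libraries were within 0.25 of 0. Among these, F clone 2 had the lowest 129 share, 43.5%, with a median of 0.01. Over the whole of chromosome 14 (402 genes), the median in I clone 1 was 0.38 higher, with a 129 share of 65.5%. Sox7 was 10.5 TPM in this clone and Gata4 2.70 TPM, close to the 2.84 TPM of I clone 2. The region around Sox17 (44 genes) was 0.40 higher in the same clone, with a 129 share of 66.1%, and down to -0.49 in the XO lines. Over the whole of chromosome 1 (633 genes), I clone 1 was 0.45 higher, with a 129 share of 68.0%. Around Pdgfra (97 genes) the median was -0.27 in X129OCast replicate 1 and within 0.25 of 0 in the other 29 libraries. The part of these regional differences in the levels of Gata4, Sox7, Sox17 and Pdgfra was not tested.

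The deletion lines were compared with XX Rnf12+/- to ask whether the loss of an X segment came with more differentiation. Of 130 pairs of a gene and a line, 8 passed the edgeR test at an adjusted p of 0.05, 1 higher and 7 lower than in XX Rnf12+/-. Over all genes tested, 14.3% of the pairs passed, 6.59% higher and 7.72% lower. In no line did more than 2 of the 10 genes pass, and no transcription factor gene was called higher in any of the 13 lines (DESeq2 called none higher either).

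Lama1 fell in AB (25.5 TPM, log2 fold change -0.99, SE 0.253, adjusted p = 0.0151) and in D (26.1 and 31.4 TPM, -0.80, SE 0.198, adjusted p = 0.00619), below both reference values of 45.0 and 52.5 TPM. Both calls held without either replicate of XX Rnf12+/-, at -1.10 and -0.87 for AB and at -0.91 and -0.68 for D. The call in AB, which rests on 1 clone, was lost with only the compared libraries in the fit (-0.99). The call in D was lost without its first clone. Sox7 fell in A (log2 fold change -2.55, SE 0.750, adjusted p = 0.0192), a value that rests on 1 clone and 5 counts.

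The other 5 calls were lost without replicate 1 of XX Rnf12+/-, the library with the highest fibroblast level, but not only then. They were also lost with only the compared libraries in the fit, and without either the first or the second clones of the deletion lines. Col4a1 in I-TEL and Col4a2 in F were lost with the replicate number as a block too. Col4a1 fell in K (log2 fold change -1.47, SE 0.320, adjusted p = 0.00812) and in I-TEL (-0.93, SE 0.313, adjusted p = 0.0477), and Col4a2 in K (-1.79, SE 0.434, adjusted p = 0.0151) and in F (-1.36, SE 0.423, adjusted p = 0.0423). Pdgfra rose in J (1.33, SE 0.395, adjusted p = 0.0308). Without that replicate, the fold changes were -0.73 and -0.19 for Col4a1 and -0.56 and -0.14 for Col4a2, Pdgfra in J was at 0.93, and none of the 5 passed. Sox7 in A was also lost, at -2.47.

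Taking away 1 reference replicate leaves the reference on 1 library, and the fold changes depended on which replicate was left. With both replicates, the median log2 fold change over the 13 lines was -0.62 for Col4a1, -0.61 for Dab2 and 0.46 for Pdgfra. Without replicate 1, these medians were 0.12, -0.05 and 0.06, and without replicate 2 they were -1.11, -1.01 and 1.01. The median log2 fold change of Col4a2 over the 13 lines was -0.65 with both replicates, 0.58 without replicate 1 and -1.30 without replicate 2. For Lama1 the same medians were -0.11 with both, -0.22 without replicate 1 and 0.01 without replicate 2. Deletion E, the line from the same library series as the reference, had no call among the 10 genes by edgeR or DESeq2, with 1 gene, Lama1, at an unadjusted p under 0.05 by edgeR (0.584% of all genes passed in this line).

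Comparing each of the 12 lines of the second series with the mean of the other 11 avoided the reference and left library series the same on both sides. Here 10 of 120 pairs passed, 7 higher and 3 lower, where 8.44% of all pairs passed (4.7% higher and 3.73% lower). Because the lines take part in each other's comparisons, these contrasts are not independent.

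J was the line with most calls, 3 of 10 (18.6% of all genes passed there). Gata4 rose by 1.22 on the log2 scale (SE 0.269, adjusted p = 0.00330), Pdgfra by 0.88 (SE 0.280, adjusted p = 0.0330) and Dab2 by 0.76 (SE 0.215, adjusted p = 0.0173). Dab2 also rose in I-TEL, by 0.78 (SE 0.214, adjusted p = 0.0176, with 14.9% of all genes called), where Gata4 was 0.73 higher without passing. J and I-TEL share their founder, which was not shared by any other line, so founder and deletion cannot be told apart. The fibroblast genes moved in the same lines: 7 of 16 were called higher in J and 4 in I-TEL, with Col3a1 up by 1.52 and 1.60, and none lower. Summed, they were at most 488.6 TPM, in J clone 1. In I, Sox7 (1.65, SE 0.292, adjusted p = 0.00260) and Gata6 (1.33, SE 0.387, adjusted p = 0.0421) rose, and no fibroblast gene was called (7.35% of all genes). Sox7 in I came to 0.74 when the first clone of every 2-clone line was left out, and was no longer called. No other call within the second series held without the first clones or without the second clones. In these fits each line rests on 1 clone.

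Lama1 had 4 of the 10 calls. It fell in AB (-0.98, SE 0.224, adjusted p = 0.0245, 1.99% of all genes called), D (-0.77, SE 0.159, adjusted p = 0.00467, 11.2%) and C (-0.42, SE 0.154, adjusted p = 0.0433, 30.9%) and rose in H (0.56, SE 0.140, adjusted p = 0.0247, 4.76%). In D, 3 of the 16 fibroblast genes rose, Postn by 1.79, Thy1 by 0.90 and Col6a3 by 0.82, in C 1 rose (Dcn, by 1.38), and in AB and H none was called, with list medians of 0.39 and -0.87. By edgeR on all 30 libraries neither collagen gene was called in any of the 12 lines, with values of -0.85 for Col4a1 and -0.96 for Col4a2 in K. This depended on the fit: DESeq2 called Col4a1 in K, and edgeR on the 20 libraries alone called Col4a1 in 3 lines (D, J and K) and Col4a2 in 6 (B, C, C-G, D, F and K), where 11.3% of all pairs passed.

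**Figure D4:**
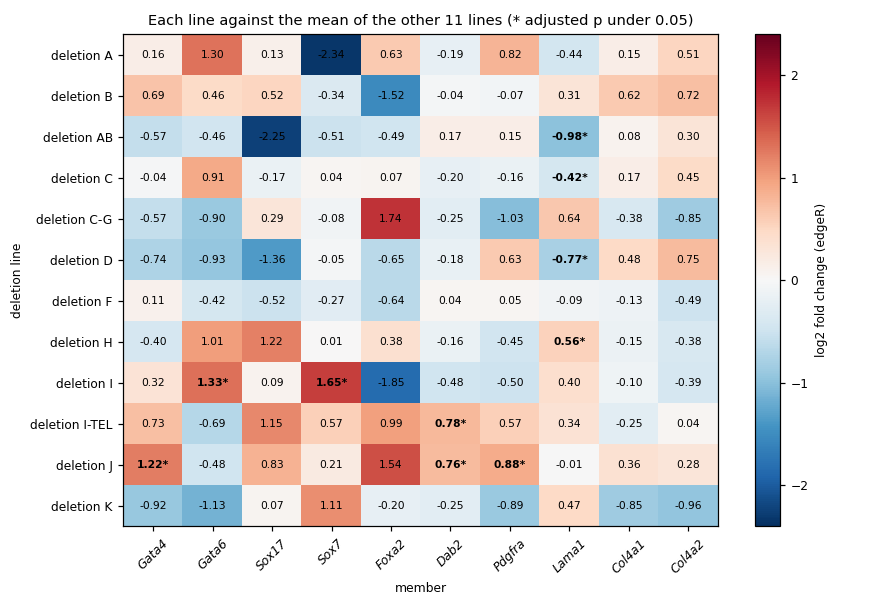
Log2 fold change of each gene (columns) in each of the 12 deletion lines of the second series (rows) against the mean of the other 11 lines, with a star at an adjusted p under 0.05. The 10 starred values are 4 for Lama1, 2 for Dab2 and 1 each for Gata4, Gata6, Sox7 and Pdgfra.

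The XO lines extend the question to the loss of a whole X chromosome. In X129OCast, 2 of the 10 passed against XX Rnf12+/-, both lower, where 45.1% of all genes passed and 23.8% were lower. Gata4 fell by 1.36 on the log2 scale (SE 0.415, adjusted p = 0.0116) and Lama1 by 0.87 (SE 0.197, adjusted p = 0.00127). The call of Lama1 held in all 12 alternative analyses, between -1.01 and -0.76. In XCastO129 none of the 10 passed by edgeR or DESeq2, and none had an unadjusted p under 0.05, where 34.7% of all genes passed. For both XO lines, these comparisons also cross library series and read type, which cannot be told apart from the missing X.

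The comparison between the XO lines has no such difference in series. Gata4 (log2 fold change -1.68, SE 0.417, adjusted p = 0.0229) and Lama1 (-1.10, SE 0.198, adjusted p = 0.00349) were lower in X129OCast than in XCastO129, 2 of 10 genes, where 5.83% of all genes passed and 2.79% were lower. The libraries did not overlap for either gene, which is no separate support because the calls rest on the same values. Both calls were lost with only the compared libraries in the fit, where 0.194% of all genes passed. None of the 16 fibroblast genes was called between the XO lines, and of the further endoderm genes Nid1 was lower (-0.87, adjusted p = 0.00475) and Lrp2, the endocytic receptor megalin, higher (1.60, adjusted p = 0.0213) in X129OCast. Each line is a single genotype with 2 libraries, and Rlim was at 3.53 TPM in X129OCast and 71.2 to 77.8 TPM in XCastO129, so the retained X, the level of Rnf12 and the line cannot be told apart. The pluripotency genes were lower in the same comparisons: 8 of 10 in X129OCast and 7 of 10 in XCastO129 against XX Rnf12+/-, and 4 of 10 in X129OCast against XCastO129, with none higher. Of the 16 fibroblast genes, 3 were lower in X129OCast and 2 higher in XCastO129 than in XX Rnf12+/-. Their part in the values of Gata4 and Lama1 was not tested. XX wild type and XX Rnf12+/- had no call among the 10 genes by edgeR or DESeq2, with none at an unadjusted p under 0.05 and 1 gene (0.0059%) called among all 16944.

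Of 30 further genes known from primitive, visceral or parietal endoderm, 26 were tested. They gave 29 higher and 33 lower calls in 338 pairs against XX Rnf12+/- and 16 higher and 8 lower in 312 pairs within the second series. For this and the following lists, the shares over all genes were 6.59% higher and 7.72% lower against XX Rnf12+/- and 4.7% higher and 3.73% lower within the series. Hnf4a, a nuclear receptor of visceral endoderm, rose in the same lines as Dab2, by 1.76 in I-TEL (adjusted p = 0.000664) and by 1.97 in J (adjusted p = 0.000162), and was lower in XCastO129 than in XX Rnf12+/- (-2.13, adjusted p = 0.0110). Sparc rose in J by 0.64 (adjusted p = 0.00573). In J, 4 of the 26 were called higher and 2 lower, where 18.6% of all genes passed. The list median there was 0.027, against 0.025 for all genes. In I, where Gata6 and Sox7 were higher, Lrp2 fell by 1.73 (adjusted p = 0.0104), Lamb1 by 0.42 (adjusted p = 0.00941), and Lamc1 rose by 0.47 (adjusted p = 0.0427). In X129OCast, 12 of the 26 were lower and 4 higher than in XX Rnf12+/- (23.8% and 21.4% of all genes), among the latter Lrp2 (2.29, adjusted p = 0.000119) and Stra6 (2.07, adjusted p = 0.00160).

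FGF signalling feeds this fate, and its 6 genes gave 4 higher and 3 lower calls in 72 pairs within the second series. Fgfr2, the receptor of primitive endoderm, rose in C by 2.15 (adjusted p = 4.54e-07) and fell in I by 2.03 (adjusted p = 0.00210), while the ligand Fgf4 fell in J by 0.33 (adjusted p = 0.0128). Genes of definitive endoderm and primitive streak, a list that also holds Foxa2 and Sox17, had 6 higher calls and none lower in 120 pairs within the second series, 5 of them in J and 1 in I-TEL. Cer1, a secreted inhibitor of anterior endoderm, was up by 3.64 in J (adjusted p = 0.0270) and by 3.63 in I-TEL (adjusted p = 0.0320), and Lhx1 (2.88, adjusted p = 0.0333) and Gsc (1.34, adjusted p = 0.0399) rose in J. Cer1 was at 0 in 7 of the 30 libraries and reached 12.5 TPM. The 10 pluripotency genes gave 13 higher and 13 lower calls in 120 pairs within the series. In I, Tfcp2l1 (1.00), Klf4 (0.95) and Tbx3 (0.86) rose, and in J, Klf4 fell by 0.48 while Klf2 and Zfp42 rose by 0.39 each.

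Trophoblast genes, which are not part of this lineage, gave 12 higher and 8 lower calls in 96 pairs. Gata3 was up by 2.22 in I-TEL (adjusted p = 0.00126) and by 1.95 in J (adjusted p = 0.00439). Krt7 was lower in both lines, at -1.63 in I-TEL (adjusted p = 0.00313) and -1.66 in J (adjusted p = 0.00259). Ascl2 was lower in J (-1.36, adjusted p = 0.0274). The medians of this list were -0.62 in I-TEL and -0.63 in J. The 5 neural genes tested gave 1 higher and 2 lower calls in 60 pairs. Against XX Rnf12+/-, the pluripotency genes were lower in 45 and higher in 1 of 130 pairs, the fibroblast genes lower in 35 and higher in 8 of 208, the trophoblast genes higher in 23 and lower in 4 of 104, the neural genes lower in 2 of 65, the FGF genes higher in 4 and lower in 4 of 78, and the definitive endoderm genes lower in 1 of 130.

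The 10 genes did not move as a block. Over the 20 libraries of the second series, the 45 pairs among them had Pearson correlations of log2(TPM + 1) from -0.56 (Lama1 and Col4a2) to 0.89 (Col4a1 and Col4a2), with a median of 0.17. The value was over 0.5 in 9 pairs, among them Pdgfra with Col4a2 (0.72), Col4a1 (0.63) and Dab2 (0.61), Gata4 with Dab2 (0.61), and Sox17 with Lama1 (0.66). Sox7 and Col4a1 were at -0.51. The genes whose profile was most like the mean of the 8 genes outside chromosome 8 were, out of 14849 and over these 20 libraries, Bmp2 (r = 0.92), Slit2 (0.89), Neil3 (0.86), Xxylt1 (0.86), Prickle2 (0.86), Fos (0.86), Tbx20 (0.85), Zadh2 (0.84), Plcl2 (0.84) and Flrt3 (0.84). Neil3 lies on chromosome 8, much of which was at raised dosage in the I-TEL and J clones. The part of this dosage in its correlation was not tested. Over all 30 libraries Bmp2 was again the most alike (r = 0.85), and 5 of the 10 were shared. These correlations describe the libraries, which share lines and series, and carry no test.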

How the data were processed

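The 30 RNA-seq libraries were grouped into 17 conditions by their labels. The authors used Trim Galore 0.6.7 to trim the reads and HISAT2 2.2.1 for alignment to mm10 with the parental SNPs masked, and merged them with SAMtools 1.10 after splitting by allele. The deposited table holds raw counts per gene in 90 columns (all, 129 and Cast reads of each library). The methods name featureCounts with reverse-stranded counting of exons, the submitters' processing notes name HTSeq 0.12.4. Reads without a SNP between the parents carry no allele, so allelic counts are a fraction of all counts.

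Of 55421 genes, 55240 were matched to GENCODE M21, and the other 181 (together no more than 0.004% of any library) were left out. TPM were computed from counts and the union of exons. Tests used edgeR 4.0.16 (quasi-likelihood, R 4.3.3) on the 18316 genes that reached 10 counts in 2 or more libraries, with all 30 libraries, 1 term per condition and TMM factors of autosomal genes. XX wild type and XX Rnf12+/- were compared on their 4 libraries alone (16944 genes). P-values were adjusted by Benjamini-Hochberg over all genes tested, at 0.05. The SE given is not an output of edgeR: it is the absolute log2 fold change divided by the square root of the F statistic. The replicates of a deletion line are independent clones; for the XX and XO libraries p-values may measure technical spread only. Conditions with 1 clone were assumed to vary like the others. The filter on counts, normalization, tool (DESeq2 1.42.0), libraries fitted, replicate block and each replicate were varied. The scripts were tested on simulated data. Tables and figures used Python 3.11.15, pandas 2.3.3, scipy 1.17.1 and matplotlib 3.10.9.

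The 10 genes and all lists were chosen with earlier results of these data known. All 10 genes are reported in every comparison. Of each other list, up to 3 genes per comparison with the largest fold change among those called could be named. The genes most alike were the 10 with the highest Pearson r over the 20 libraries of the second series, at a mean CPM of at least 1.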

Additional observations from a re-analysis of the deposited data

Results flagged for a closer look

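Each deletion line of the second library series was tested against the other 11 lines, and 10 of the 120 differences passed, where 8.44% of all pairs passed. Lama1 differed in AB (-0.98 on the log2 scale), C (-0.42), D (-0.77) and H (0.56). Gata6 (1.33) and Sox7 (1.65) differed in I, and Dab2 in I-TEL (0.78) and J (0.76). Gata4 (1.22) and Pdgfra (0.88) differed in J.

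Between the XO lines, Gata4 (-1.68) and Lama1 (-1.10) were lower in X129OCast than in XCastO129.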

How the results depend on the processing

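No call of the 10 genes changed direction under any alternative. Counts of calls were the same with TMM of all genes, DESeq2's size factors and autosomal genes only. In brackets is the share of all genes or pairs called under the same setting. The count against XX Rnf12+/- was 8 (14.3%). It was 12 with DESeq2 (14.2%), 47 without a count filter (9.16%), 2 with only the compared libraries in the fit (3.11%) and 2 to 33 without 1 replicate (2.77% to 18.4%). Within the second series the count was 10 (8.44%). It was 13 with DESeq2 (8.59%), 6 among genes with a mean TPM over 5 in XX Rnf12+/- (11.1%), 42 without a count filter (5.89%), 24 with a fit on the 20 libraries alone (11.3%) and 0 to 1 without 1 replicate of every line (0.945% to 1.26%). In X129OCast against XX Rnf12+/- it was 2 (45.1%), and was 1 with the TPM filter (54.6%), 6 without a count filter (23.8%) and 1 to 4 without 1 replicate (34% to 39.4%). In XCastO129 it was 0 (34.7%), and was 2 without a count filter (18.6%) and 0 to 2 without 1 replicate (28.3% to 30.2%). Between the XO lines it was 2 (5.83%), and was 1 with the TPM filter (8.98%), 0 with only the compared libraries (0.194%) and 0 to 3 without 1 replicate (1.06% to 5.93%). Without X129OCast replicate 1 neither call remained there, and without X129OCast replicate 2 or XCastO129 replicate 1 only 1 did. Gata4 in X129OCast against XX Rnf12+/- was lost without either X129OCast replicate or XX Rnf12+/- replicate 2. For these counts the cause was not tested. Leaving out a replicate makes a line of 2 clones rest on 1. Depth limits Sox17 and Foxa2 most, with as few as 2 and 1 counts in a library.

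Replicate numbers were not taken to pair the libraries: over 78 pairs of conditions, the correlation of the deviations of same-numbered libraries had a median of 0.0222 (range -0.413 to 0.759, 28 over 0.1). The highest value, 0.759, was that of XX wild type with XX Rnf12+/-, a hint from the data that these 4 libraries may be paired. With the replicate number as a block, 1 of the 10 genes passed there, Lama1, lower in wild type (-0.24, adjusted p = 0.0186), where the share of all genes called rose from 0.0059% to 13.1%. The other counts with the block were 8 against XX Rnf12+/-, 11 within the second series, 3 in X129OCast, 0 in XCastO129 and 2 between the XO lines.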
